A study of Mus musculus with 8 samples.

Results

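The genes described here encode 7 subunits of the GABA-A receptor, namely Gabra2, Gabra3, Gabra4, Gabra5, Gabrb1, Gabrb2 and Gabrg1. They were chosen by name, and for each the probe set that names only that gene was used, or, where a gene had several, the brightest on average. All 7 had such a probe set, among 19938 genes in all. Earlier results of these data were known when they were chosen, and the lower Gabra2 signal in mutants was among the reasons for the choice, so the differences between genotypes in these genes are given as a description, without a test. Total RNA of laser-microdissected neocortical layers II-IV from mouse pups at postnatal day 5 was measured on Affymetrix arrays of the Mouse Gene 1.0 ST design, with an array for each pup. The 4 control pups were Bcl6 flox/flox and Nex +/+, so they carried the floxed Bcl6 alleles without Cre, and the 4 mutant pups were Bcl6 flox/flox and Nex Cre/+. Nex (Neurod6) is a gene of excitatory cortical neurons, so Cre acts in those neurons and not in the interneurons, glia or vessels that the captured tissue also holds. The labels give neither strain nor sex of the pups.

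GABA-A receptors are chloride channels opened by the transmitter GABA and are built from several subunits around a central pore. Alpha and beta subunits form the GABA site, and a gamma subunit next to an alpha subunit forms the site at which benzodiazepines act. The alpha subunit sets much of a receptor's kinetics and place: receptors with alpha2 cluster at synapses and on the axon initial segment, those with alpha5 lie largely outside synapses, and those with alpha4 often pair with delta outside synapses and do not respond to classical benzodiazepines. In rodent cortex the alpha2, alpha3, alpha5 and gamma1 transcripts are prominent around birth and recede later, while alpha4 and beta2 become more prominent as the cortex matures. In the text below the first 4 are called early and the other 2 late subunits, and Gabrb1, which has no such clear course, is placed in neither group. Over the same period the chloride exporter KCC2 (Slc12a5) gains on the importer NKCC1 (Slc12a2), which turns the action of GABA from depolarising to hyperpolarising.

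The subunit genes lie in clusters, and 4 of the 7 lie side by side on chromosome 5. In the GRCm38.p6 gene table the order there is Gabrg1, Gabra2, Cox7b2, Gabra4 and Gabrb1, so that a single gene that is no receptor subunit stands among them, and the annotated 5′ ends of Gabra4 and Gabrb1, which run in opposite directions, overlap. Gabra5 is on chromosome 7, Gabrb2 on chromosome 11 and Gabra3 on chromosome X. The bases just before the annotated start of 3 cluster genes are shown because Gabra2 had the widest difference between genotypes, while its neighbours Gabra4 and Gabrg1 differed by less than the spread between arrays, and because Gabra2 and Gabrg1 differ in base composition. They are RefSeq sequences of GRCm38.p6, 250 bases each up to the start, all on the minus strand, at chr5:71095850-71096099 for Gabra2, chr5:71658309-71658558 for Gabra4 and chr5:70842618-70842867 for Gabrg1. Capitals mark a match to TTCNNNGAA.
Gabra2: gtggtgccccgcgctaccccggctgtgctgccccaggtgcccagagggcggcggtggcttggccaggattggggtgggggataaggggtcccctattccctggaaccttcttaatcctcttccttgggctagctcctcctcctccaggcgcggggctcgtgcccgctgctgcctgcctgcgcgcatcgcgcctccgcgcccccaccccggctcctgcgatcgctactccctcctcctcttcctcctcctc
Gabra4: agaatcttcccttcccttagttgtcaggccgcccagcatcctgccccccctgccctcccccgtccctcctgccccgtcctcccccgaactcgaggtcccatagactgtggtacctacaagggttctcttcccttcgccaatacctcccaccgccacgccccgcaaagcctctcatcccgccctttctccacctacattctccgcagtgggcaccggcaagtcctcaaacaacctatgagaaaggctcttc
Gabrg1: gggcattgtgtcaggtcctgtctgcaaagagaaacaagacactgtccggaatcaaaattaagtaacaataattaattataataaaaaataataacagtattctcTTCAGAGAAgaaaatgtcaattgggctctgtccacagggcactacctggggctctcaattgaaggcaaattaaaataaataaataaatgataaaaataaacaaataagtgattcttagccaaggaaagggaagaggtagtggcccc

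The RefSeq table held 11 promoter windows for the 7 genes, each of 300 bases, from 250 before to 50 after a start. Their content of G and C ran from 38.3% in Gabrg1 to its highest in Gabra2, against a median of 52.7% over all 32851 windows. The Gabra2 window was richer in G and C than 90.4% of all windows and that of Gabrg1 than 7.45%, so these cluster neighbours mark both ends of the range among the 7 genes. The motif TTCCTNGAA, which resembles the site that the BCL6 protein binds, was searched on both strands and was present in 1 of the 11 windows. That match, TTCCTTGAA, begins 37 bases after the downstream start of Gabrb1, and 1.59% of all windows hold a match. The looser motif TTCNNNGAA, which every TTCCTNGAA site also matches, was present in 2 of the 11 windows and in 8.30% of all windows. These were the same Gabrb1 window and that of Gabrg1, where it begins 146 bases before the start. The Gabra2 window held neither motif, which says only that these letters are not in it.

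The values are log2 expression as deposited by the authors, and a difference of 1 is a 2-fold change. Each is 1 probe set's signal, so the level of a gene can be compared between arrays but not with the level of another gene. The array medians lay between 4.94 and 5.01. The targeted gene did not check the labels: Bcl6 read 6.23 to 6.58 in controls and 6.61 to 6.96 in the arrays labelled mutant. The Bcl6 groups did not overlap, and mutants were higher by 0.37 ± 0.10 (SE; limma adjusted p = 0.655). Its probe set may lie outside the deleted part, and the cause of the higher reading was not tested. Neurod6, the locus that carries Cre in mutants, read 9.15 to 9.41 in controls and 8.69 to 9.07 in the arrays labelled mutant. These groups did not overlap, with a difference of -0.39 ± 0.09 (SE; limma adjusted p = 0.535), a value singled out after it was seen. "Mutant" means the arrays labelled so. Xist, the RNA of the inactive X chromosome, read 9.78 and 9.76 in mutant replicates 1 and 4 and 3.41 or less in the other 6 arrays. Rorb, a layer IV marker, stood apart in control replicate 4 at 9.35 and in mutant replicate 4 at 9.81, against 10.3 to 10.5 in the other arrays. The excitatory marker Slc17a7, the vesicular glutamate transporter, read 7.55 to 8.29, and the interneuron markers Gad1 and Gad2, which make GABA, read 7.37 to 7.70 and 6.62 to 6.94. The table holds no detection calls, so no marker can be called absent.

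Among the early subunits, Gabra2, which encodes alpha2, had the widest difference between genotypes. In the order of their replicate numbers, the controls read 6.32, 6.17, 6.56 and 6.47 and the mutants 6.19, 5.96, 5.97 and 6.08. Of the mutants only replicate 1 lay above any control, exceeding control replicate 2 by a narrow margin, so that the groups overlapped by that single pair of arrays. Controls averaged 6.38 ± 0.17 (SD, n = 4) and mutants 6.05 ± 0.11, a difference of -0.33 ± 0.09 (moderated SE), or 1.25-fold more in controls. The difference lay between -0.27 and -0.40 when each array was left out in turn. It was -0.41 without the arrays of high Xist, and -0.31 without the arrays of low Rorb, a setting chosen after the values were seen. In bulk tissue, fewer cells that express the gene and less RNA per cell cannot be told apart.

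Gabra3, encoding alpha3, showed no such shift. Controls read 8.76, 8.76, 8.97 and 9.04 and mutants 8.98, 8.77, 8.83 and 8.98, and the ranges lay almost on top of each other. The difference was 0.01 ± 0.08 (SE). Gabra3 is X-linked, and among mutants the arrays of high Xist, replicates 1 and 4, were the higher pair. The same pair was the higher among mutants in Gabra2 and Gabra5, which are not X-linked, so this was not particular to Gabra3. Without these arrays the Gabra3 difference was -0.08 ± 0.10. Those of Gabra2, Gabra5 and Gabrg1 were also lower then, at -0.41, -0.18 and -0.14. Gabra3 in controls, all with low Xist, ran from 8.76 to 9.04.

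Gabra5, encoding alpha5, read 9.80, 10.09, 10.20 and 10.29 in controls and 10.06, 9.94, 9.90 and 10.01 in mutants. All 4 mutants lay between the lowest and the next control, while controls were spread widely (SD 0.21 against 0.07 in mutants). The difference was -0.12 ± 0.10 (SE), and it was -0.22 without control replicate 1 and -0.06 without control replicate 4. Gabrg1, encoding gamma1, a subunit found in astrocytes as well as in neurons, read 5.19, 5.33, 5.57 and 5.37 in controls and 5.46, 5.09, 5.37 and 5.30 in mutants. The groups overlapped over most of their range, with a difference of -0.06 ± 0.10 (SE). It was -0.12 without control replicate 1, 0.0074 without control replicate 3 and 0.0090 without mutant replicate 2, so its sign turned with single arrays. The mean over the 8 arrays was below the median of 5.55 over all genes.

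The late subunits differed little between genotypes. Gabra4, encoding alpha4, read 8.32, 8.36, 8.36 and 8.29 in controls and 8.38, 8.13, 8.35 and 8.30 in mutants. Only mutant replicate 2 lay apart from the other arrays, and the difference was -0.04 ± 0.07 (SE). Gabrb2, encoding beta2, read 10.80, 10.95, 10.83 and 10.69 in controls and 10.90, 10.74, 10.83 and 10.66 in mutants, a difference of -0.03 ± 0.08. It has 2 further probe sets, which gave differences of 0.0042 and -0.06 against pooled SDs of 0.12 and 0.20. Gabrb1, encoding beta1, read 8.65, 8.68, 8.61 and 8.29 in controls and 8.72, 8.51, 8.56 and 8.41 in mutants. In Gabrb1 and Gabrb2 the lowest array of each group was replicate 4, and the difference of Gabrb1 was -0.01 ± 0.10. When each array was left out in turn, the differences of Gabra3, Gabra4, Gabrb1 and Gabrb2 took both signs, within -0.09 and 0.06.

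**Figure D1:**
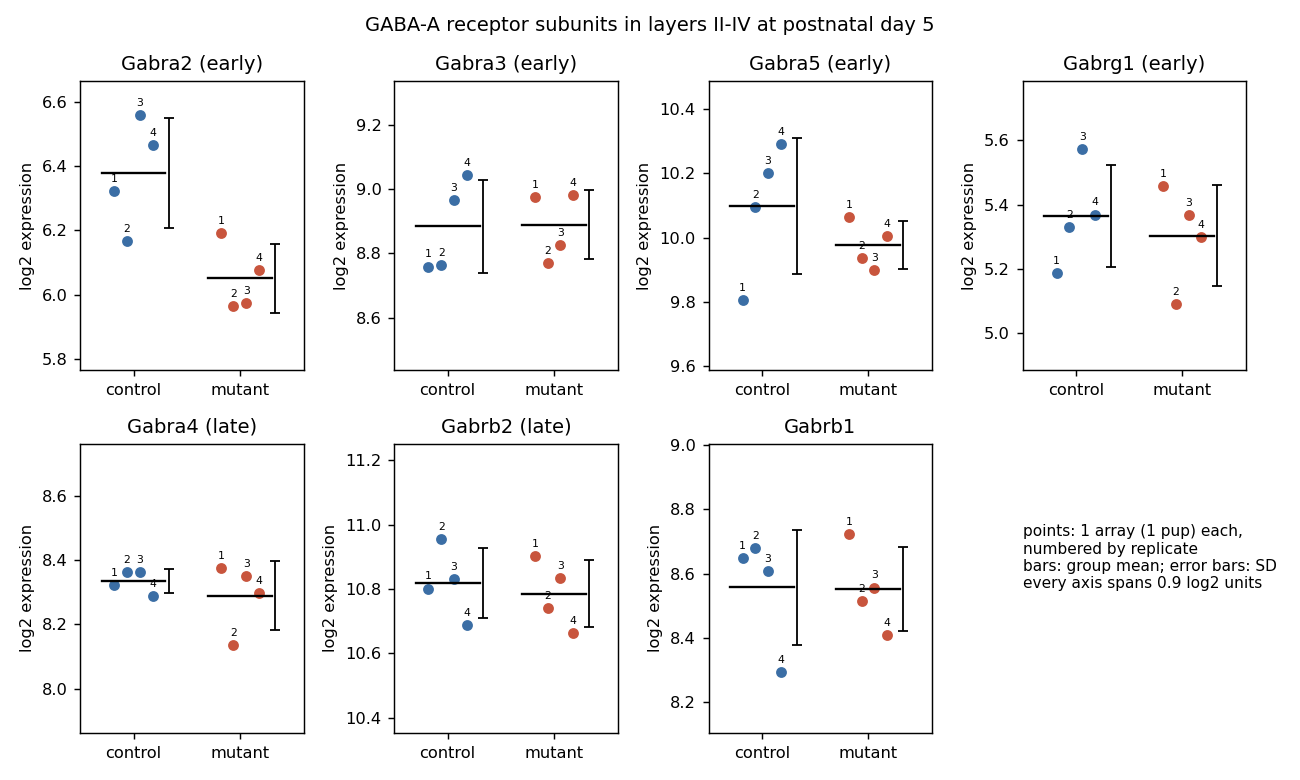
Deposited log2 expression (y axis, each panel spanning 0.9 units) of the 7 subunit genes in 4 control and 4 mutant pups (x axis), with a point per array numbered by replicate, a bar for the group mean and an error bar for the SD. Gabra2 shows the widest gap, from a mean of 6.38 to 6.05, with mutant replicate 1 above control replicate 2, and in the other 6 genes the groups overlap more widely.

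Of the 7 subunits, 0 passed limma's adjusted threshold of 0.05 over all genes, against 0.0652% of all genes, and 1, Gabra2, had an unadjusted p under 0.05, against 4.91% of all genes. Groups without overlap were seen in 0 of the 7, against 2.75% of all genes. Since this contrast helped to choose the genes, nothing is read from these counts. The difference was negative in 6 of the 7, with a median of -0.04, and in 55.4% of all genes, with a median of -0.01. After quantile normalization or median centring it was negative in 5 of the 7, as Gabrb1 then read 0.0007 and 0.0050. Single arrays moved this count too: it was 3 of 7 without mutant replicate 2, with a median of 0.0055, 4 of 7 without control replicate 3, and 7 of 7 without mutant replicate 1 or without both arrays of high Xist. Outside Gabra2 the differences ran from -0.12 to 0.01. The spread within groups was ordinary for this table: the pooled SD ran from 0.081 in Gabra4 to 0.158 in Gabra5, around a median of 0.113 over all genes.

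Early and late subunits were then set against each other within each array, which removes any shift that an array's genes share. The mean log2 value of the 4 early minus that of the 2 late subunits was -2.04, -2.07, -1.77 and -1.70 in controls and -1.97, -1.997, -2.08 and -1.89 in mutants. Its sign carries no meaning, because it depends on the probes, but its change between arrays does. Control replicates 3 and 4 were the highest and all other arrays lay within a narrower band. The mutant minus control difference was -0.09, with a pooled SD of 0.14, so it was smaller than the spread between arrays of a group. It was -0.02 without control replicate 4, -0.05 without control replicate 3, -0.06 without mutant replicate 3, -0.14 without control replicate 1 and -0.15 without control replicate 2. With Gabra2 left out of the early group the difference was -0.02, against a pooled SD of 0.14. The other 3 early subunits together thus differed by less than the spread between arrays, and most of the gap in the 4-gene mean lay in Gabra2.

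The balance of Slc12a5 and Slc12a2 is another readout of how far GABA signalling has matured, and it took no part in the choice of genes. Slc12a5 minus Slc12a2 was 1.49, 1.32, 1.81 and 1.58 in controls and 1.21, 0.96, 1.76 and 1.58 in mutants. Mutant replicates 1 and 2 lay below all controls and mutant replicates 3 and 4 lay among them. The difference was -0.17, with exact permutation p = 0.4 (two-sided, n = 4 per group, smallest possible p 0.0286). The same test gave an interval of at least 95% confidence from -0.85 to 0.44, since its p-values move in coarse steps. No difference was therefore detected with 4 arrays a group, and the interval holds changes in either direction. Slc12a5 itself read -0.05 ± 0.10 (SE) and Slc12a2 0.12 ± 0.12 in mutants relative to controls.

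**Figure D2:**
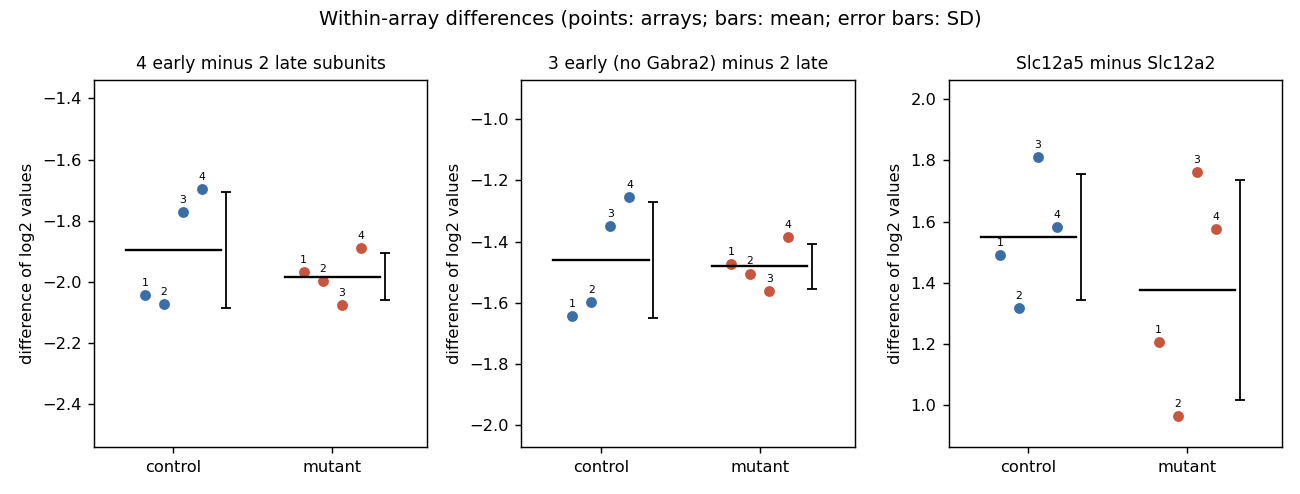
Within-array differences of log2 values (y axis) in control and mutant pups (x axis): early minus late subunits, the same without Gabra2, and Slc12a5 minus Slc12a2, with a point per array numbered by replicate, a bar for the group mean and an error bar for the SD. The group means differ by -0.09, -0.02 and -0.17, each less than the pooled SD of 0.14, 0.14 and 0.29.

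The rest of the GABA pathway was examined through 6 lists that hold none of the 7 subunits. Of their 69 genes 63 were tested, and 0 rose and 0 fell over all genes in limma; 2 of the 63, or 3.17%, had an unadjusted p under 0.05, against 4.91% of all genes. The median difference was -0.01 and 37 of the 63 differences were negative, against 33 after quantile normalization and 29 after median centring, where the median was -0.0033 and 0.0014, and 31 without mutant replicate 2, with a median of 0.0063. Of the other GABA-A subunits 9 of 12 were tested, with a median of -0.03 and 6 negative. Gabrg3, the gamma3 subunit, read 0.14 ± 0.11 (SE), Gabrq, the theta subunit, -0.12 ± 0.09, and Gabrr1, a rho subunit known from retina, -0.11 ± 0.09. The other 6 tested lay between -0.09 and 0.06, at Gabrp, the pi subunit, and Gabrr2, a rho subunit.

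Of the metabotropic GABA-B receptors and their auxiliary proteins 6 of 6 genes were tested, with a median of -0.0047 and 3 negative. Kctd16, an auxiliary subunit, read -0.17 ± 0.09 (SE), Kctd8, of the same family, 0.05 ± 0.07 and Gabbr2, the signalling subunit, 0.04 ± 0.08. For GABA synthesis, vesicle loading, uptake and breakdown, 8 of 9 genes were tested, the median was 0.04 and 3 were negative. Slc6a13, a GABA transporter of meninges and vessels, read -0.13 ± 0.09, Slc6a11, the glial transporter GAT-3, 0.08 ± 0.07 and Aldh5a1, an enzyme of GABA breakdown, 0.09 ± 0.08. Among chloride transporters and their kinases, 8 of 9 were tested and the median was -0.02, with 5 negative. Beside Slc12a2, the smallest p belonged to Wnk1, a chloride-sensing kinase (0.09 ± 0.09), and Slc12a7, a potassium-chloride exporter (-0.04 ± 0.07).

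Partners that anchor GABA-A receptors held both of the list genes at an unadjusted p under 0.05. That count over the 63 pathway genes fell to 0 with the level of Y-linked genes as a covariate, without the arrays of high Xist, without mutant replicate 2 and without mutant replicate 4. Of 15 genes of the inhibitory postsynapse 14 were tested, with a median of -0.01 and 8 negative. Slitrk3, an adhesion protein that organises inhibitory synapses, read -0.19 ± 0.08 (SE; limma adjusted p = 0.988) and Igsf9b, another adhesion protein of these synapses, -0.13 ± 0.06 (adjusted p = 1.00), while Insyn2a, a gephyrin partner, read 0.10 ± 0.06. Gphn, the scaffold gephyrin, read -0.04 ± 0.06. All 18 genes of receptor assembly and trafficking were tested, with a median of -0.02 and 12 negative. Plcl2, a phospholipase-like protein that binds receptor partners, read -0.14 ± 0.08, Nsf, a fusion factor that acts in receptor traffic, -0.10 ± 0.09 and Trak1, a motor adaptor, 0.05 ± 0.07.

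**Figure D3:**
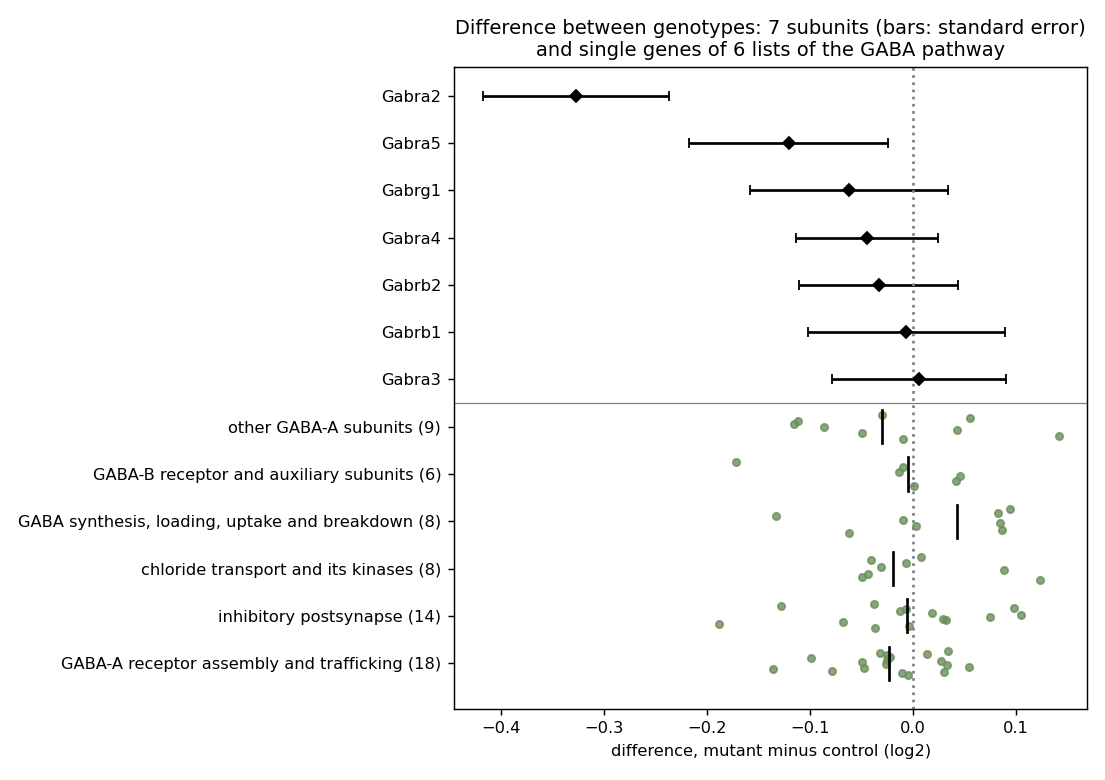
Mutant minus control difference in log2 expression (x axis) for the 7 subunits (diamonds with the moderated standard error) and for single genes of 6 pathway lists (green points, number tested in parentheses, vertical tick for the median). Gabra2 lies lowest at -0.33, and the medians of the 6 lists lie between -0.03 and 0.04.

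Marker lists of the cell types in the captured tissue were tested in the same fit. Of 73 marker genes 0 passed over all genes in limma, and 4 had an unadjusted p under 0.05, against 4.91% of all genes. Of these 4, 2 were interneuron markers, 1 of the oligodendrocyte lineage and 1 of microglia. The microglia marker was lower in mutants and the others were higher. The summed linear signal of the 19 interneuron markers tested was 2399 to 2591 in controls and 2497 to 2654 in mutants, with 12 of 19 differences positive. That of 13 upper-layer excitatory markers was 10866 to 13258 and 11401 to 12655, and that of 14 astrocyte markers 3235 to 3562 and 3086 to 3703. The 9 markers each of the oligodendrocyte lineage, microglia and endothelium summed to 868 to 988, 248 to 300 and 966 to 1033 in controls and to 871 to 1019, 244 to 280 and 942 to 1115 in mutants. Differences were positive in 7 of 13 upper-layer excitatory, 10 of 14 astrocyte and 8 of 9 endothelial markers. They were positive in 5 of 9 markers of the oligodendrocyte lineage and 3 of 9 of microglia. Over all genes 55.4% of differences were negative. In each of these 6 lists the ranges of the summed signal overlapped between groups. Such sums are carried largely by the brightest probe sets, so their overlap says little about the dimmer markers of a list. Their part in the Gabra2 difference was not tested.

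The subunits were also compared with each other inside the groups, from each array's deviation from its group mean, a measure that the choice of genes did not use. Pearson's r lay between 0.55 and 0.84 over the 6 pairs of the 4 early subunits, given as a description. Not every array shared a direction: in mutant replicate 3 Gabrg1 deviated by 0.06 and the other 3 early subunits by -0.06 to -0.08, and in mutant replicate 4 Gabrg1 deviated by -0.0055 and the other 3 by 0.02 to 0.09. The closest of these pairs were Gabra2 with Gabra3 (r = 0.84, exact permutation p = 0.0469; Spearman's rho = 0.64, p = 0.146) and Gabra3 with Gabra5 (r = 0.80, exact permutation p = 0.0243; rho = 0.81, p = 0.0382). Gabrb1 and Gabrb2 formed the closest pair of all, with r = 0.89 (exact permutation p = 0.00694; rho = 0.88, p = 0.0104). Without the 2 arrays farthest from the median of Gabra2, Gabra3 and Gabrb2, respectively, r was 0.87, 0.79 and 0.87 for these 3 pairs. Of all 21 pairs 0 passed Benjamini-Hochberg adjustment for r, the smallest adjusted p being 0.146. The p-values are two-sided over the 576 reorderings of arrays within groups.

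Pairs of neighbours on chromosome 5 were set beside the other pairs. The median r was 0.36 over the 6 pairs of Gabrg1, Gabra2, Gabra4 and Gabrb1 and 0.31 over the other 15 pairs, given as a description. Gabra2 and Gabrb1 of this cluster had r = -0.16 and Gabra4 and Gabrb1, whose 5′ ends overlap, r = 0.47, while Gabrb1 and Gabrb2, on chromosomes 5 and 11, had 0.89. Early and late subunits had a median r of 0.16 over 8 pairs, with 0.75 for Gabrg1 and Gabra4 and -0.40 for Gabra3 and Gabrb2 at the ends.

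**Figure D4:**
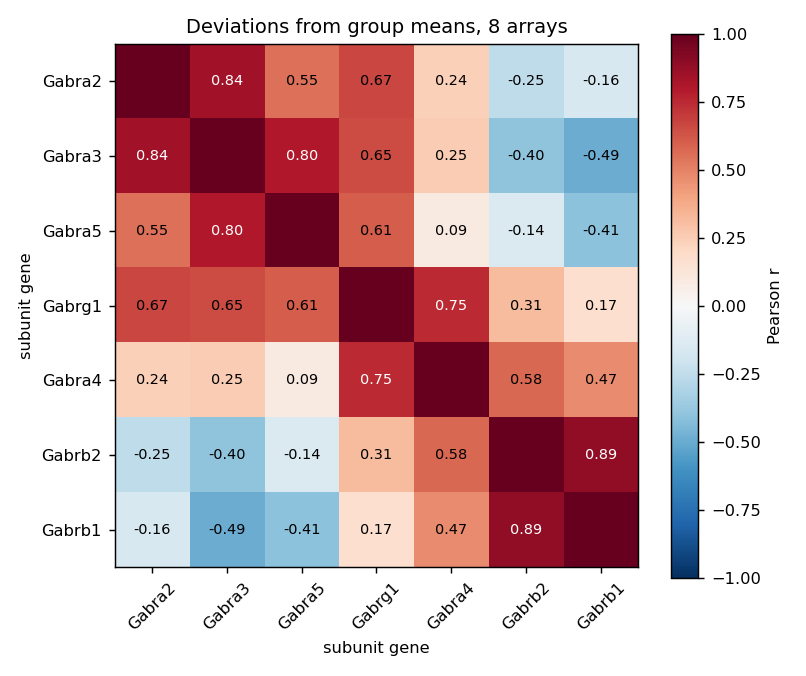
Pearson's r (colour scale and printed values) between deviations from group means of the 7 subunit genes (both axes) over 8 arrays. The early subunits Gabra2, Gabra3, Gabra5 and Gabrg1 form a block of 0.55 to 0.84, and Gabrb2 with Gabrb1 reaches 0.89.

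Rorb, which stood apart in both arrays numbered 4, was set against the subunits within groups. The deviations of Gabrb1 and Rorb had r = 0.91 (exact permutation p = 0.0226; Spearman's rho = 0.74, p = 0.0573), those of Gabrb2 and Rorb r = 0.79 (exact permutation p = 0.0399; rho = 0.79, p = 0.0347), and those of Gabra3 and Rorb r = -0.74 (exact permutation p = 0.0243; rho = -0.83, p = 0.0312). Adjusted over the 7 subunits, the smallest p for r was 0.0851, so 0 relations passed. The 2 arrays farthest in Rorb were both arrays numbered 4. Without them r was 0.36, 0.33 and -0.46 with the deviations as they stood. With group means taken anew over the remaining arrays it was 0.23, 0.41 and -0.50. These values drop the same arrays and are a single check, in which the relations to Rorb rest largely on these arrays. Gabrb1 and Gabrb2 still had r = 0.77 without both arrays numbered 4, and Gabra2 and Gabra3 had 0.92. Rorb was singled out after its values were seen.

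**Figure D5:**
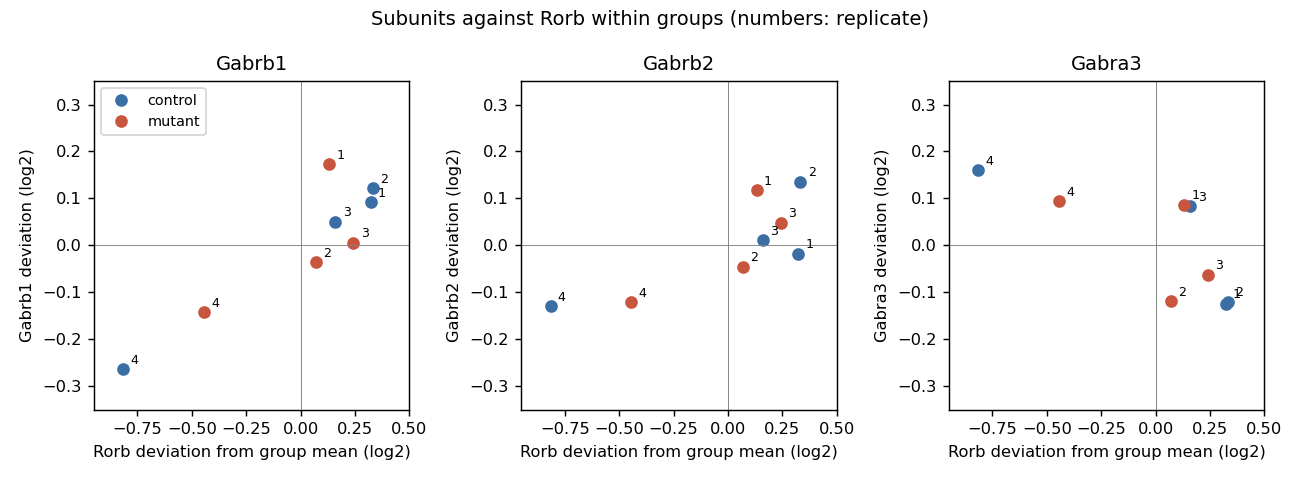
Deviation from the group mean (log2) of Gabrb1, Gabrb2 and Gabra3 (y axes) against that of Rorb (x axis), with a point per array, numbered by replicate, for 4 control and 4 mutant pups. Control replicate 4 and mutant replicate 4 lie far to the left in all 3 panels, low in Gabrb1 and Gabrb2 and high in Gabra3.

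The genes whose deviations were most like those of Gabra2, among the 9968 others at or above the median level, were Tle4, Rnd3, Sumf1, Rnf185 and Tars, with Pearson's r from 0.98 to 0.97 over 8 arrays. Such values are the top of a search through many genes and are given as a likeness only. Tle4, a corepressor known from deep-layer neurons, read 6.13, 6.03, 6.26 and 6.23 in controls and 6.27, 6.12, 6.13 and 6.23 in mutants. In each group its arrays stood in the same order as those of Gabra2, and its difference between genotypes was 0.03 ± 0.07 (SE). Other deep-layer genes did not share this likeness: r with Gabra2 was -0.76 for Hs3st4, -0.61 for Foxp2, -0.53 for Crym, -0.52 for Fezf2, 0.27 for Tbr1 and 0.60 for Bcl11b, and -0.73 for the mean of these 6, as a description over the same 8 arrays. Rnd3, a small GTP-binding protein of migrating neurons, read 7.45, 7.36, 7.82 and 7.64 in controls and 7.68, 7.43, 7.46 and 7.59 in mutants, a difference of -0.03 ± 0.10. Sumf1, an enzyme that activates sulfatases, read -0.03 ± 0.10, Rnf185, a ubiquitin ligase, -0.0015 ± 0.08, and Tars, the threonine tRNA ligase, -0.11 ± 0.07. These 5 genes followed Gabra2 from pup to pup within groups. Nothing is read from their smaller differences between genotypes, because Gabra2 was chosen in part for its difference and these genes were not.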

How the data were processed

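The authors deposited 1 log2 expression value for each of 35556 probe sets on 8 arrays, made with BRB-ArrayTools per the labels' design text; how background, normalization and summarization were handled, and the version, is not stated in these sources. Probe sets were named from the platform annotation, with symbols updated through the Entrez identifier; 21789 named 1 gene and 1621 several, and the highest-mean probe set of each gene was kept (19938 genes). The number of arrays limits the precision. The genotypes were compared by limma (version 3.58.1, under R 4.3.3) with lmFit and eBayes (genotype as sole term, two-sided, Benjamini-Hochberg over all genes, threshold 0.05). In 5 simulations with 200 changed genes, limma recovered 75.0% of steps of 0.5 and 98.2% of steps of 1, and 4.40% of calls were false. The simulated noise was independent between genes, without variation that arrays share. Steps as small as the Gabra2 difference of -0.33 were not simulated, so these shares do not give the recovery of such differences.

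The members and lists were chosen with earlier results of these data known. Named were the 7 subunits, list genes past the threshold, 3 genes of smallest p per pathway list, Slc12a5 and Slc12a2, and the 5 genes most like Gabra2; genes named beyond this rule were chosen after their values were seen. Alternatives were quantile normalization, median centring, a filter on dim genes, other priors, array weights, the replicate block, the mean of probe sets, a Y-linked covariate and left-out arrays. Promoter windows are from RefSeq, GRCm38.p6.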

Additional observations from a re-analysis of the deposited data

Results flagged for a closer look

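Among some of the genes named, but not all, groups of 4 arrays were examined for an array that stood far from the other 3. The distance was taken relative to the group's range. This was done for 72 groups, and 4 were marked, where chance marks about 1 in 20. None of the 7 subunits was among them. In controls Rorb was 9.35 in replicate 4, against 10.3 in the nearest array, and Neurod6 was 9.41 in replicate 2, against 9.17. In mutants Plcl2 was 7.68 in replicate 1, against 7.87, and Wnk1 was 8.16 in replicate 4, against 8.38. These marks are not a full list for the genes named. Foxp2 in controls was not marked, although it was 4.75 in replicate 2, against 4.47 in the nearest array.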

How the results depend on the processing

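The Gabra2 difference stayed negative under all 20 alternatives, between -0.41 and -0.27, and that of early minus late subunits under all 19 that could be computed, between -0.15 and -0.02; the filter on dim genes removed Gabrg1 and gave no value there. Slc12a5 minus Slc12a2 stayed negative under all 20, between -0.30 and -0.03, with a permutation p for 15 of them; the priors, weights and covariates gave the difference (-0.17 with either prior, -0.14 with array weights, -0.21 with the Y-linked and -0.15 with the deep-layer covariate) without such a p. The pathway lists gave 0 calls throughout. The counts over all genes were less stable than these values. Against 10 higher and 3 lower, 8 and 1 were called after quantile normalization, 9 and 1 after median centring and 10 and 1 with the filter. With the Y-linked covariate 3 were higher and 1 lower, and without the arrays of high Xist 2 and 0. Without both arrays of low Rorb 3 and 0 were called, and with the mean of Foxp2, Fezf2, Bcl11b, Tbr1, Hs3st4 and Crym, 6 deep-layer genes, as a covariate 8 and 1 (both chosen after seeing the data); Gabra2 then read -0.31 and -0.30. Leaving out each array gave 3 to 9 higher and 0 to 4 lower. With the replicate block 4 were higher and 1 lower, Gabra2 kept its difference of -0.33 ± 0.09 (SE), and Slc12a5 minus Slc12a2 had an exact permutation p of 0.125, the smallest that 4 pairs allow. Same-numbered arrays correlated at -0.01 to 0.16, and only replicate 4 correlated best with its own number, so numbers were not taken as pairs. The cause of these shifts in counts was not tested.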
